A study of Rattus norvegicus with 2 samples.

Results

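The genes described here were 10 members of the interferon response: the chemokine genes Cxcl9, Cxcl10 and Cxcl11, the antiviral effector genes Rsad2, Ifit2, Ifit3, Mx1 and Mx2, the transcription factor gene Irf7 and the ubiquitin-like modifier gene Isg15. They were measured by 11 of the 21109 probes that could be named, so 10 of 16581 named genes are covered. Their probes were found by matching transcript accessions to rat RefSeq genes, and the set was selected on its measured values: it was put together after the differences of Cxcl10, Ifit3 and Rsad2 between these same arrays had stood out. The differences of the members are therefore given as a description, with no test.

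A female and a male pool were compared, each read on 1 array. The tissue was the NTS, the nucleus of the solitary tract, the part of the dorsal medulla where cardiovascular and visceral afferents end. The donors were spontaneously hypertensive rats (SHR), an inbred strain that develops high blood pressure, 9 weeks old and killed under ether. The female pool held RNA of 5 female rats and the male pool RNA of 5 male rats, 100 ng from each animal, and both sexes had free access to food and water. Because each sex was represented by 1 pool on 1 array, the variation between animals is unknown and no p-value is given for any difference. In whole tissue, a change in the number of cells that carry a transcript cannot be told apart from a change in the amount per cell.

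Interferons are cytokines that cells release after sensing foreign or misplaced nucleic acid. They bind surface receptors linked to Janus kinases, which activate transcription factors of the STAT family. Together with Irf9 these bind a short promoter sequence called the interferon-stimulated response element (ISRE) and switch on effector genes that restrict viral replication. Cxcl9, Cxcl10 and Cxcl11 share the receptor CXCR3 and attract activated T cells and natural killer cells. In the brain, glia, endothelium and neurons can all make Cxcl10.

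The promoters below are shown because they belong to the 3 members that led to the choice of this set, and to Irf7, a member whose promoter holds the same motif. Each runs from 250 bases before to 50 bases after the start of the gene in RefSeq on build GRCr8, and is written 5′ to 3′ along the gene. Capitals mark matches to the ISRE core GAAANNGAAA or its reverse complement TTTCNNTTTC.
Cxcl10, chr14:15988816-15989115, plus strand: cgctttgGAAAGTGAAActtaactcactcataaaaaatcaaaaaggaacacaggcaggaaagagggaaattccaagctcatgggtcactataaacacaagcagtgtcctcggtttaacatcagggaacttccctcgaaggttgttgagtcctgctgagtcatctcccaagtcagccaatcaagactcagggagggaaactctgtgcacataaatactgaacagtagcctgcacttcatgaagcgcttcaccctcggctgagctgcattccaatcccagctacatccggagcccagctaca
Rsad2, chr6:48788071-48788370, minus strand: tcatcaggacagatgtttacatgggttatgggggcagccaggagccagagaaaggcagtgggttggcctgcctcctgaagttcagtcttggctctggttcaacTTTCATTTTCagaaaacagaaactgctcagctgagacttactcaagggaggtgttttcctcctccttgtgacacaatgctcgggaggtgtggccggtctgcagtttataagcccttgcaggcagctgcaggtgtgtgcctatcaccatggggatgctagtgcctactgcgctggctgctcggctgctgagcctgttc
Ifit3, chr1:241527076-241527375, plus strand: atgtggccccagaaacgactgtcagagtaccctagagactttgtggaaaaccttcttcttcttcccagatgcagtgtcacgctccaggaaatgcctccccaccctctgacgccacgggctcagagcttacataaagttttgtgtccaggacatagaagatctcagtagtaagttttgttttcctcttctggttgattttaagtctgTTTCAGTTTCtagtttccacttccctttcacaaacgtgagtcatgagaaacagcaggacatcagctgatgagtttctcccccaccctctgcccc
Irf7, chr1:205799974-205800273, minus strand: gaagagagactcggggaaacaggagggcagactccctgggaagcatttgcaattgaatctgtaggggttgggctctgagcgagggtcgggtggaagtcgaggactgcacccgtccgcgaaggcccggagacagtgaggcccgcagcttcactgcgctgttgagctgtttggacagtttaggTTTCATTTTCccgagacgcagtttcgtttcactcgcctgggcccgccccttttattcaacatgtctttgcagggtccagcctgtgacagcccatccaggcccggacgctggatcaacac

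Of the 7 members with a promoter in that table, these 4 held an ISRE match, against 3.92% of all 33469 promoters of 300 bases. The match began 243 bases before the start in Cxcl10, 147 before it in Rsad2, 69 before it in Irf7 and 44 before it in Ifit3. Cxcl9, Cxcl11 and Mx1 had none in this window. The kappaB form GGGANNTTCC, searched on both strands, occurred in Cxcl10 and Cxcl11, against 1.3% of promoters. In Cxcl10 it matched at 2 places, 187 and 128 bases before the start, and the second place also matched on the other strand, displaced by a single base. In Cxcl11 it matched 74 bases before the start. The palindromic form TTCNNNGAA, bound by STAT factors, occurred in Cxcl9 and Cxcl11, against 8.87% of promoters. In Cxcl9 it began at base 33 after the start, and in Cxcl11 at the first base of the window, 250 before the start. These matches are descriptions of the sequence, and the reference strain of the table is not SHR.

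Signals below are scaled so that the 75th percentile of each array is 100. The error after the ± sign is the error of the single spot from the scanner software's own error model; it covers neither animals nor pools nor labelling. Differences are female minus male on the log2 scale, and each fold divides the brighter by the dimmer array. A gene counted as measured when a probe was well above background on both arrays, which held for 9 of the 10 members and for 13424 of the 16581 named genes. Where a probe was well above background in a single pool, a bound is given. It divides that signal by the lowest signal that counted as well above background on the other array. Where the probe's own signal on the other array was higher than that, it divides by this signal instead. The bound leaves the spot error out.

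The chemokine genes lie next to each other on chromosome 14 of GRCr8, with no protein-coding gene between them, and they differed from each other on these arrays. Cxcl10 had a scaled signal of 8.61 ± 0.864 in the female pool, against 1.57 ± 0.175 in the male pool. The difference was 2.46 ± 0.22, or 5.49-fold, and was 11.4 times its spot error. In unprocessed terms the spot of Cxcl10 had a median pixel brightness of 255 over a local background of 36 in the female pool, against 71 over 38 in the male pool.

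Cxcl9 had a scaled signal of 0.948 ± 0.126 in the female pool and 0.535 ± 0.103 in the male pool. This was 1.77-fold, a difference of 0.83 ± 0.34, on a spot barely brighter than its surroundings. Its median pixel brightness was 56 over a background of 41 in the female pool and 47 over 38 in the male pool. Cxcl11 was not well above background in either pool, at 0.143 ± 0.0859 in the female pool and 0.228 ± 0.0928 in the male pool. No fold is given for it, since both values lie below the lowest signal that counted as well above background, 0.344 in the female and 0.365 in the male pool.

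Among the antiviral effectors, Rsad2 encodes viperin, an enzyme that makes a chain-terminating nucleotide. Its brighter probe read 34.9 ± 3.49 in the female pool, against 16.2 ± 1.62 in the male pool. The difference of 1.10 ± 0.20, or 2.15-fold, was 5.41 times the spot error. The other probe of Rsad2 was dim, at 0.46 ± 0.101 in the female pool, and was not well above background in the male pool, at 0.200 ± 0.0991. That probe gives only a bound, 1.26-fold higher in the female pool before spot error. Both probes of the gene read higher in the female pool, but the difference of the dim probe was only 1.54 times its spot error.

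Ifit2 and Ifit3, neighbours on chromosome 1, encode RNA-binding proteins of the same family. Ifit3 had a scaled signal of 2.61 ± 0.272 in the female pool, against 1.04 ± 0.132 in the male pool. The difference was 1.33 ± 0.24, or 2.52-fold. Ifit2 had 3.21 ± 0.334 in the female pool and 2.37 ± 0.256 in the male pool, a difference of 0.44 ± 0.22 that stayed within 1.5-fold. Whether the probes of these related genes read each other's transcript was not tested, since probe sequences were not used here, and the same holds for Mx1 and Mx2.

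Mx1 and Mx2 encode dynamin-like GTPases that trap viral components. Mx1 read 68.7 ± 6.87 in the female pool and 53.7 ± 5.37 in the male pool, a difference of 0.36 ± 0.20. Mx2 read 1702 ± 170.2 in the female pool and 1649 ± 164.9 in the male pool, a difference of 0.05 ± 0.20. The Mx2 values differed less than their errors.

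The remaining members differed between the pools by less than their spot error. Irf7, the factor that amplifies type I interferon production, had 16.9 ± 1.69 in the female pool and 18.0 ± 1.81 in the male pool, a difference of -0.09 ± 0.20. It was the only measured member with a lower value in the female pool. Isg15, which is conjugated to other proteins during the response, had 26.4 ± 2.64 in the female pool and 25.6 ± 2.56 in the male pool, a difference of 0.05 ± 0.20.

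**Figure D1:**
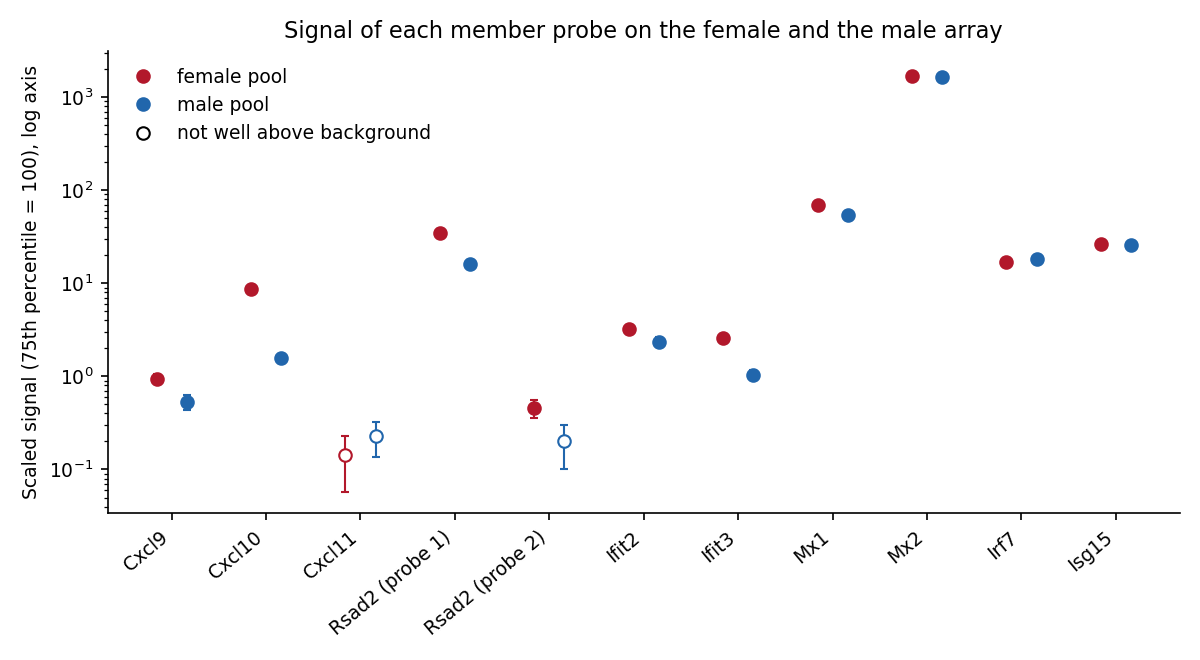
Scaled signal (log axis, 75th percentile of each array = 100) of the 11 probes of the 10 genes, with the female pool left of the male pool. Each point is 1 spot, bars are the scanner software's error of that spot, and open points were not well above background; Cxcl10, Ifit3 and the brighter Rsad2 probe show the widest separation, while the points of Mx2, Isg15 and Irf7 nearly coincide.

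Of the 9 measured members, 4 were at least 1.5-fold higher in the female pool (Cxcl10, Ifit3, Rsad2 and Cxcl9) and none was at least 1.5-fold higher in the male pool. Over all measured genes, 1.5% were past that fold on the female side and 0.797% on the male side. The rule that chose the members used this contrast, so nothing is read from their count. The median difference of the 9 members was 0.44, against 0.02 over all measured genes. At 2-fold, 3 members remained, Cxcl10, Ifit3 and Rsad2, against 0.402% of all measured genes on the female side.

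The members past 1.5-fold were mostly dim. Cxcl9, Cxcl10, Ifit2 and Ifit3 lay in the dimmest 25% of measured genes by mean signal, and there 5.01% of all genes were past 1.5-fold on the female side and 1.97% on the male side. Rsad2, Irf7 and Isg15 lay between the 50th and the 75th percentile of mean signal, where 0.298% of genes were past that fold on the female side. Mx1 and Mx2 lay in the brightest 25%, where the share was 0.0894%.

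**Figure D2:**
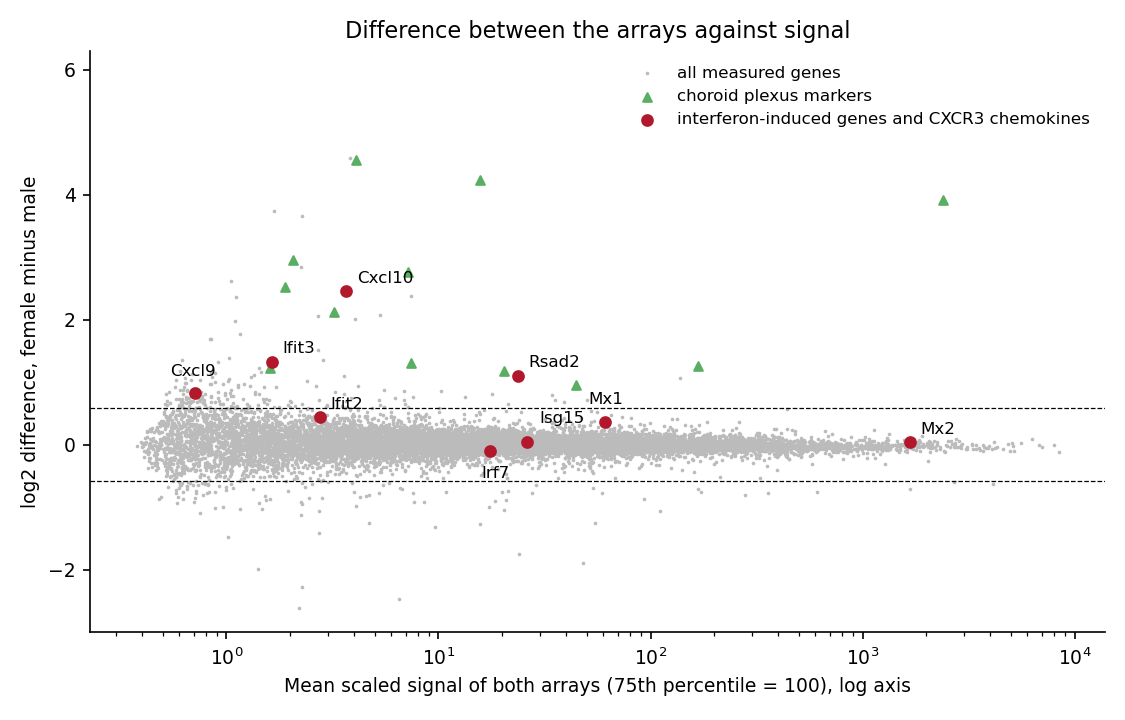
Difference between the pools (log2, female minus male) against the mean scaled signal of both arrays (log axis) for all 13424 measured genes in grey, the 9 measured members as red circles and 12 choroid plexus markers as green triangles. Dashed lines mark 1.5-fold; the grey cloud widens towards low signal, where Cxcl9, Ifit3 and Cxcl10 lie, and Cxcl10 sits among the choroid plexus markers.

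Each measured difference rested on a single spot per array. The measured spots within 5 rows and 5 columns of a member had median differences between -0.03 and 0.06. How background was handled mattered for the dim members. With normexp correction, which fits signal and background together and adds an offset of 50, Cxcl10 had a difference of 1.49 and Rsad2 of 1.02, both past 1.5-fold. With the same correction Ifit3 had 0.50 and Cxcl9 0.05, both within it. Without any background correction Cxcl9 had 0.22 and Ifit3 0.69.

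**Figure D3:**
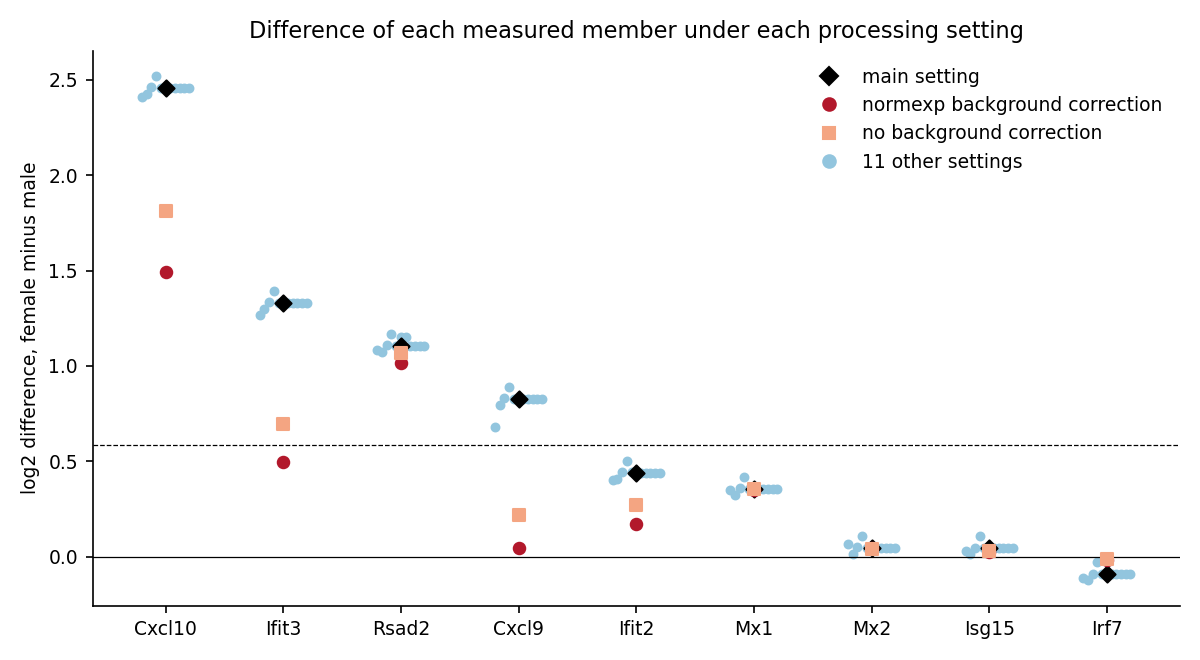
Difference (log2, female minus male) of the 9 measured members in the main setting (black diamonds), with normexp correction (red circles), with no background correction (orange squares) and in 11 other settings (pale blue). The dashed line marks 1.5-fold; Cxcl10 and Rsad2 stay above it in every setting drawn, Ifit3 drops below it with normexp, and Cxcl9 drops below it in both background settings.

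The rest of the interferon pathway was read from a wider list of 104 genes, which also held 10 other chemokine genes of the brain. Of the 104, 90 had a named probe and 78 were measured. None of the 78 was past 1.5-fold in either direction, against 2.29% of all measured genes. A count of 0 among 78 genes is close to that low share, so this count and the counts by role below are descriptions, and nothing particular to the pathway is read from them. The differences of the 78 ran from -0.43 (Ccl4) to 0.56 (Ccl2), both of them among those chemokine genes, with a median of 0.04. Of the 78, 47 were higher and 31 lower in the female pool. Another 6 were well above background in a single pool, 5 in neither, and 1, Ccl7, had repeated spots that fell on both sides of that limit. The largest bound among these belonged to Cxcl1, a neutrophil chemokine gene, which was at least 1.60-fold higher in the female pool. Cxcl1, Ccl2, Ccl4, Ccl7 and the genes named below for lying below background were chosen after their values were seen.

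Of 8 ligand and 6 receptor genes listed, 3 and 4 were measured, and none of these was past 1.5-fold. Of the interferon genes themselves, the type I genes Ifna4 and Ifnk, the brightest of the 3 measured, had differences of -0.05 and 0.02. Ifnb1, a type I gene named after its value was seen, had 0.472 in the female pool and 0.460 in the male pool. Ifng, the gene of the type II interferon that drives Cxcl9, was not well above background in either pool. Ifna2, a type I gene also named after its values were seen, was well above background in the male pool alone, a bound of at least 1.23-fold lower in the female pool. The receptor subunit genes Ifngr1 and Ifngr2 had differences of 0.18 and 0.04, the brightest of the 4 measured receptor genes. Cxcr3, the receptor of the chemokines, was not well above background in either pool, and the scavenger receptor gene Ackr3 had a difference of 0.17.

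All 11 listed genes of kinases and transcription factors were measured, and none was past 1.5-fold, with differences between -0.12 and 0.15. These are the genes through which the receptors signal. The brightest by gene mean were the kinase gene Jak1, at 115.2 in the female pool and 115.3 in the male pool, and Stat2, at 107.6 in the female pool and 111.3 in the male pool. Jak1 is the mean of 2 probes, and the brighter read 430.1 in the female pool and 427.1 in the male pool. Of 9 measured sensor and adaptor genes none was past 1.5-fold, and the adaptor genes Mavs and Myd88 had differences of 0.07 and 0.01.

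None of the 36 measured effector genes outside the set was past 1.5-fold, a count of 0 beside 2.29% over all measured genes. They had a median of 0.06 and 22 of 36 higher in the female pool. The brightest by gene mean were Oas1b, of the family of 2′-5′ oligoadenylate synthetases, at 1210 in the female pool and 1228 in the male pool, and the GTPase gene Igtp, at 133.5 and 128.3. Igtp is the mean of 2 probes of unlike brightness, with differences of -0.03 and 0.14. The brighter of them read 4082 in the female pool and 4166 in the male pool. Cmpk2, an interferon-induced nucleotide kinase gene that is the immediate neighbour of Rsad2 on chromosome 6, had 72.1 in the female pool and 72.7 in the male pool, a difference of -0.01. It was named after its value was seen, because Rsad2 beside it was 2.15-fold higher. Ifit1, the third member of the Ifit2 and Ifit3 family on the list, was not well above background in either pool.

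In the conjugation pathway of Isg15, the enzyme gene Ube2l6 had a difference of -0.20 and the deconjugating protease gene Usp18 one of 0.02. Of 5 genes that restrain the response, the phosphatase genes Ptpn6 and Ptpn2 were the brightest, with differences of -0.01 and 0.04. Among 7 other measured chemokine genes, Cx3cl1 had a difference of 0.07 and Cxcl12 one of -0.11. Ccl2, named after its value was seen, stood closest to the threshold at 1.48-fold, with 2.18 in the female pool and 1.48 in the male pool.

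**Figure D4:**
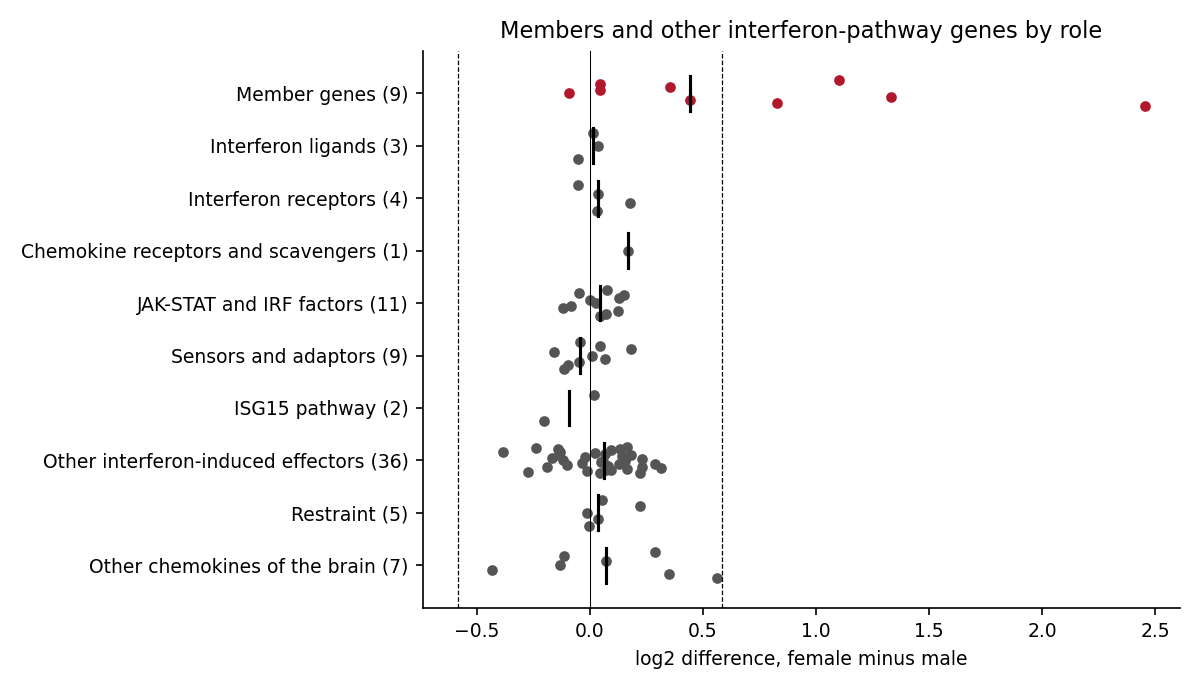
Difference (log2, female minus male) of each measured gene, by role, with the number of genes in brackets and the median as a black bar. Dashed lines mark 1.5-fold in either direction. On the female side 4 members lie beyond it, and none of the 78 genes of the wider list does.

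Markers of cells that could carry these transcripts were read beside the members. Of 12 choroid plexus markers, all 12 were at least 1.5-fold higher in the female pool, with a median difference of 2.33 and a summed signal of 9816 in the female pool against 787 in the male pool. The 4 with the largest fold were Kcnj13, Sostdc1, Ttr and Prlr, at 23.5-fold, 18.8-fold, 15.1-fold and 7.79-fold. All 5 erythroid genes were at least 1.5-fold lower in the female pool, with a summed signal of 3467 in the female pool against 5396 in the male pool, among them Slc4a1, Ahsp, Hbb and Alas2 at 1.90-fold, 1.89-fold, 1.68-fold and 1.66-fold. S100a8 and S100a9, of 3 measured granulocyte genes, were 1.89-fold and 1.81-fold lower in the female pool. The part of choroid plexus and blood in the differences of Cxcl10, Ifit3, Rsad2 and Cxcl9 was not tested.

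Lymphocyte lists were read in the same way, and whether lymphocytes had a part in the differences of the members was not tested. Of 10 T cell markers, Cd3e, Cd247, Cd2 and Cd8a were not well above background in either pool. The 6 measured ones had a median of -0.13, and their summed signal was 148.7 in the female pool against 165.9 in the male pool. Cd28 and Cd3d, the brightest of them, had differences of -0.17 and -0.03. Cd28 alone read 113.4 in the female pool and 127.7 in the male pool, so the summed signal mostly follows its 1 measured probe. Of 8 natural killer and cytotoxic markers, Klrd1, Klrk1, Klrb1 and Ncr1 were not well above background in either pool, and the 3 measured ones summed to 3.75 in the female pool against 4.02 in the male pool, with Nkg7 at -0.10 and Gzma at -0.16.

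Markers of resident cells had no gene past 1.5-fold, against 2.29% of all measured genes. That share is low, so nothing is read from this count. The 12 microglial markers had a median of -0.06 and summed to 818 in the female pool against 848 in the male pool, with differences of 0.03 for C1qb and -0.17 for Cx3cr1. The 8 endothelial markers had a median of -0.09 and summed to 249 in the female pool against 268 in the male pool, with 0.02 for Slco1c1 and -0.23 for Vwf. The 7 astrocyte markers had a median of -0.07 and summed to 9367 in the female pool against 9653 in the male pool, with -0.03 for Aldoc and -0.11 for Aqp4.

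Genes near Cxcl10 were sought among measured genes outside the members whose symbol holds only letters and digits, leaving out LOC and RGD names. Of these, the genes whose 2 values lay closest to those of Cxcl10 were Kl, Cdh1 and Cldn1. Their distances were 0.36, 0.36 and 0.69 on the log2 scale over 2 arrays. Kl, which encodes klotho and is on the choroid plexus list, had 6.72 in the female pool and 1.54 in the male pool. Cdh1, the gene of epithelial cadherin, had 8.11 in the female pool and 2.00 in the male pool. Cldn1, a tight junction gene, had 5.50 in the female pool and 1.32 in the male pool. With 2 arrays, this likeness says only that signal and fold were close.

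The labels were checked on the same arrays. Eif2s3y, a Y-linked gene, was not well above background in the female pool and at least 65.0-fold lower there than in the male pool. The measured probe of Ddx3y, also Y-linked, had 10.2 in the female pool and 24.3 in the male pool. It was lower in the female pool but well above background there, which a transcript of the Y chromosome alone would not give, and what the probe reads in the female pool was not tested. Uty, the remaining Y-linked gene with a named probe on the list, was not well above background in either pool and gives no check. The markers of dorsal medulla neurons were present in both pools, with the noradrenaline synthesis genes Th at 532 in the female pool and 602 in the male pool and Dbh at 381 in the female pool and 399 in the male pool. Th and Dbh were the 2 of the 7 measured markers that were lower in the female pool. The other 5 were higher there, and the median difference of the 7 was 0.11. Of the cortical markers, Tbr1 was not well above background in either pool and Neurod6 was dim, at 0.656 in the female pool and 1.02 in the male pool. Both arrays were on 1 slide and read in 1 scan, and 82.3% of spots were well above background for the female and 80.1% for the male pool.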

How the data were processed

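The deposited scanner files hold spot intensities on a linear scale from 1-colour (Cy3) Agilent arrays, background-corrected by Agilent Feature Extraction, version 11.5.1.1 per the file headers and 9.1 per the submitters' processing notes. In the value table that the authors deposited, each column equals that array's processed intensity divided by a constant (23.4 female, 22.8 male; column medians 19.6 and 19.4), so it is linear, uncentred by gene and without direction. Here log2 processed intensity minus each array's 75th percentile was used, without control spots and outlier-flagged spots (363 female, 284 male). No spot was saturated. Repeated spots were averaged, then measured probes of a gene. Accessions were matched without versions to RefSeq genes of GRCr8, for names and gene order only; the array design uses an older assembly. Genes were counted past 1.5-fold. The members and lists were chosen with earlier results of these data known. Named genes are all members, and per role or marker list those past 1.5-fold (up to 4 markers) or else the brightest 2. The 3 nearest to Cxcl10 among genes with a plain symbol are also named. Others are marked in the text. The alternatives varied background correction, scaling, dim-probe filters, probe summary, flags, source table and fold. With 1 array per sex, precision is limited by the number of arrays. Code was tested on simulated data. Tools were Python 3.11.15, numpy 2.4.6, pandas 2.3.3, R 4.3.3 and limma 3.58.1. Some genes of these lists are not reported here.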

Additional observations from a re-analysis of the deposited data

How the results depend on the processing

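No paired analysis was possible because the groups hold a single array each and share no replicate pair. All settings were planned. Over 13 other settings Cxcl10 and Rsad2 stayed past 1.5-fold in all 13, Ifit3 in 12 and Cxcl9 in 11, and no measured member changed direction. These tallies are not 13 separate checks. The filter, probe-summary and flag settings could not move Cxcl10, Ifit3 or Cxcl9, each read by a single probe. The deposited table holds the same intensities divided by a constant, and other centrings shift all genes by a common step. Normexp correction, run on each spot's median signal because the files hold no mean signal, gave differences of 1.49 for Cxcl10, 0.50 for Ifit3, 0.17 for Ifit2 and 0.046 for Cxcl9, a median of 0.17 and 2 members past 1.5-fold; without background correction Cxcl10 had 1.81, Ifit3 0.69 and Cxcl9 0.22. A threshold of 3-fold left 1 member. With no filter on dim probes 1 member, Cxcl11, counted as 1.5-fold higher in the male pool, from values below background. Of the wider list, 1 gene passed 1.5-fold on the female side with spike-in centring and 1 with flagged spots kept, Ccl2 in both (0.62 and 0.59), and 1 on the male side with quantile normalization, Ccl4 at -0.61. The counts of all genes past 1.5-fold, 201 on the female and 107 on the male side, became 37 and 33 with normexp, 50 and 38 without background correction, 567 and 213 with probes above background on either array, and 1134 and 513 with no filter. They became 54 and 20 at 2-fold and 22 and 6 at 3-fold. The causes were not tested, except for what holds by construction. Fewer or more genes pass when the fold or filter changes, and the offset added with normexp makes folds of dim spots smaller. Centring on spike-in probes moved the median of all genes from 0.02 to 0.08, so every difference shifts by that step. Repeated spots of a probe differed between arrays with a median SD of 0.18 in the dimmest 25% of signal (39 probes) and 0.04 in the brightest 25% (1126 probes); Cxcl9, Cxcl10, Ifit2 and Ifit3 lie in the dimmest 25%.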
